A study of Homo sapiens with 8 samples.

Results

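MT2A and MT1G encode metallothioneins, and their expression was examined in 4 human multiple myeloma lines with and without knockdown of MMSET I. The 2 genes were chosen by earlier results from these arrays: MT2A by its drop with the knockdown in KMS34, and MT1G by its level in OPM2, above the other lines. Each has 1 row in the table, so they are 2 of the 14812 genes with a symbol and 2 of the 11109 genes tested. The list of metallothionein genes held 17 symbols, of which 11 had a named row and are described below. MT1A, MT1HL1, MT1DP, MT1JP, MT1IP and MT1CP were not analysed here.

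Metallothioneins are small, cysteine-rich proteins that bind zinc and copper, buffer free zinc and take up toxic metals such as cadmium. Zinc or cadmium switches their genes on through the transcription factor MTF1, which binds short metal response elements in their promoters, and oxidative stress raises them as well. MT2A is also a well-known glucocorticoid-induced gene, including in lymphoid cells. The human genes lie in a cluster on chromosome 16 and arose by duplication, so that their transcripts are alike in sequence.

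There were 8 arrays. In each of KMS11, KMS18, KMS34 and OPM2, which carry the t(4;14) translocation, 1 culture was labelled MMSETI knockdown and 1 control. MMSET I is a short form of the histone methyltransferase NSD2. Lentivirus was added to each culture together with polybrene at 8 µg/mL, the medium was changed after 24 h, and RNA was taken another 48 h later. The series text gives 72 h and names KMS11 alone. The sources used here give neither the content of the control virus nor the shRNA sequence. A line is a single long-term culture, and nothing in the labels gives a repeat of a culture, so the 4 lines are the replicates of the knockdown. P-values of the knockdown measure the spread of its differences between these lines, and a difference within a line has no test. All tests between lines use that same spread, with the knockdown and control arrays of a line standing in for repeats.

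The values are intensities, which have no unit beyond the scanner's, and with so few arrays their precision is low. Lowest and highest intensities were 18.86 to 19.02 and 11521 to 13166 on the 8 arrays. A row whose mean log2 value was under the 25th percentile of named genes, an intensity of 46.7, is called dim here. Of the plasma cell markers 7 of 10 had a row, with summed intensities of 7843 to 11269 on knockdown arrays and 8113 to 10877 on control arrays. T and NK cell markers (4 of 8 with a row) summed to 288 to 344 on knockdown and 256 to 335 on control arrays, and myeloid markers (5 of 7) to 263 to 346 and 287 to 339. Stromal and endothelial markers (2 of 7) summed to 74.1 to 86.5 on knockdown and 73.3 to 80.0 on control arrays. Sums of different lists cannot be compared, since their probes and numbers of genes differ. Not every plasma cell marker was bright: POU2AF1 had 70.7 to 88.4 on the 8 arrays, and CD38 had 50.6 in the KMS11 control. A dim row is not shown to be absent, because detection calls were not analysed here. In bulk RNA, fewer cells making a transcript and less of it per cell cannot be told apart. The NSD2 row, which does not separate its isoforms, had log2 differences, knockdown minus control, of -0.13 to -0.31 in the 4 lines, and GLO1, the gene in the series title, of -0.65 to -0.94.

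The 250 bases before the annotated start are shown for MT2A, for MT1X, whose signal followed that of MT2A from line to line, and for MT1H, whose row was dim on 8 of 8 arrays. The sequences are from RefSeq, build GRCh38.p14, each on the + strand, 5′ to 3′, at chr16:56608334-56608583 for MT2A, chr16:56682220-56682469 for MT1X and chr16:56669564-56669813 for MT1H. Capitals mark matches to the metal response element core, searched as TGCACNC and TGCGCNC on both strands.
MT2A: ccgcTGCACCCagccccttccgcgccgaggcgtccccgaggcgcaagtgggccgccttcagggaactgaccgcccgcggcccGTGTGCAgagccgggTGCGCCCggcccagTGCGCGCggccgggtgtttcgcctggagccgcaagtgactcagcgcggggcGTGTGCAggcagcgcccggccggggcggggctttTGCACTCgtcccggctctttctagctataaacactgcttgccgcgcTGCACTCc
MT1X: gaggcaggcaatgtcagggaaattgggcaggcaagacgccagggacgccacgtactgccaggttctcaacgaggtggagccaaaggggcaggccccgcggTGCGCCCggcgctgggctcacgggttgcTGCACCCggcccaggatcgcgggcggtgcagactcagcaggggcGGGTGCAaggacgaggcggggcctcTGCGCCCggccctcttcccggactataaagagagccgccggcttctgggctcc
MT1H: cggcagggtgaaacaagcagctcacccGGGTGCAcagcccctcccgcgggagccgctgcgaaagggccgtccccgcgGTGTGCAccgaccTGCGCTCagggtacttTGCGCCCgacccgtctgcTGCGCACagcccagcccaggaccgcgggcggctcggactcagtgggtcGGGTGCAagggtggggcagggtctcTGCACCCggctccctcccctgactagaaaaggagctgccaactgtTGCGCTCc

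Of the 17 listed genes, 5 had an entry among the 35116 promoters of the table: MT1B, MT1H, MT1X, MT2A and MT4. In these windows the core matched 7 times in MT2A, 4 times in MT1X, 8 times in MT1H and 3 times each in MT1B and MT4. Among all promoters of the table cut to the same length, 24.8% held at least 1 match, 1.58% at least 3, 0.37% at least 4 and 0.0313% at least 7. A match is a run of letters and not a measured site.

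Other short elements were searched on both strands in the same windows. The AP-1 element TGACTCA occurred once in MT2A and once in MT1B, against 4.2% of all promoters with at least 1. The TATA box TATAAA occurred in MT2A, MT1X, MT1B and MT4 and was without a match in MT1H, against 10.7% of all promoters. The GC box GGGCGG matched 2 times in MT2A and 2 times in MT1X, against 24.3% of promoters with at least 2; in MT1X one of these overlaps a metal response core. In a global alignment the MT1X window shared 55.3% of aligned positions with MT2A, 62.9% with MT1H and 63.7% with MT1B. By this measure MT1X was closer to MT1H and MT1B, whose rows were dim, than to MT2A.

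**Figure D1:**
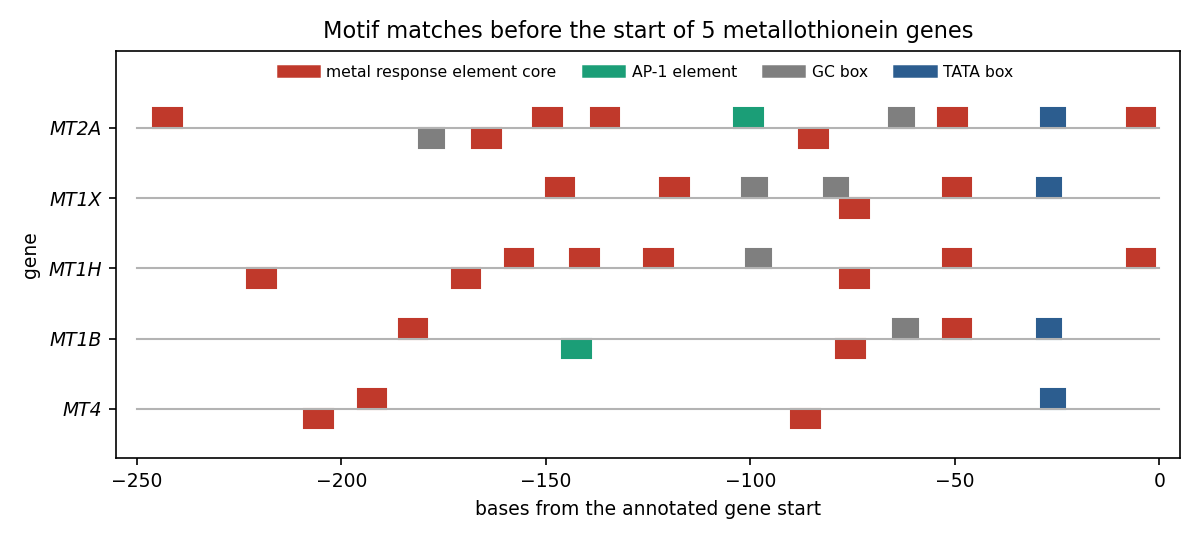
Positions of 4 short motifs in the 250 bases before the annotated start of MT2A, MT1X, MT1H, MT1B and MT4; the horizontal axis is the distance from the start in bases, blocks above a line are forward matches and blocks below it reverse matches. MT2A has 7 and MT1H 8 matches to the metal response element core.

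MT2A was high in KMS34 and OPM2 and low in KMS11 and KMS18. In KMS34 it had an intensity of 239 on the knockdown array and 407 on the control array, and in OPM2 172 and 194. In KMS18 it had 73.4 with the knockdown and 54.5 in the control, and in KMS11 65.0 and 61.2. The arrays of KMS34 and of OPM2 all lay above those of the other lines, and KMS34 lay above OPM2 without overlap. KMS11 and KMS18 overlapped.

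This line pattern was not what MT2A was chosen by, and it passed limma's moderated F test between lines (adjusted p = 7.8e-07), as did 75.7% of all tested genes. The line means spanned 4.94-fold, or 2.31 on the log2 scale. KMS34 exceeded OPM2 by 1.71-fold, or 0.77 log2 units, which is a description because the KMS34 arrays chose the gene. OPM2 exceeded KMS18 by 2.89-fold (limma, adjusted p = 4.87e-05; 21.3% of genes were called higher in OPM2) and KMS11 by 2.89-fold (limma, adjusted p = 4.01e-05; 24.9%). KMS11 minus KMS18 was -0.0039 log2 units (SE 0.198, limma, adjusted p = 0.989; 56.5% of genes were called between these lines). The KMS34 arrays that chose MT2A enter the F test; without them the line means still spanned 1.53 on the log2 scale (limma, adjusted p = 2.57e-07). The spread behind these tests is that of the knockdown differences, from a single pair of cultures per line.

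**Figure D2:**
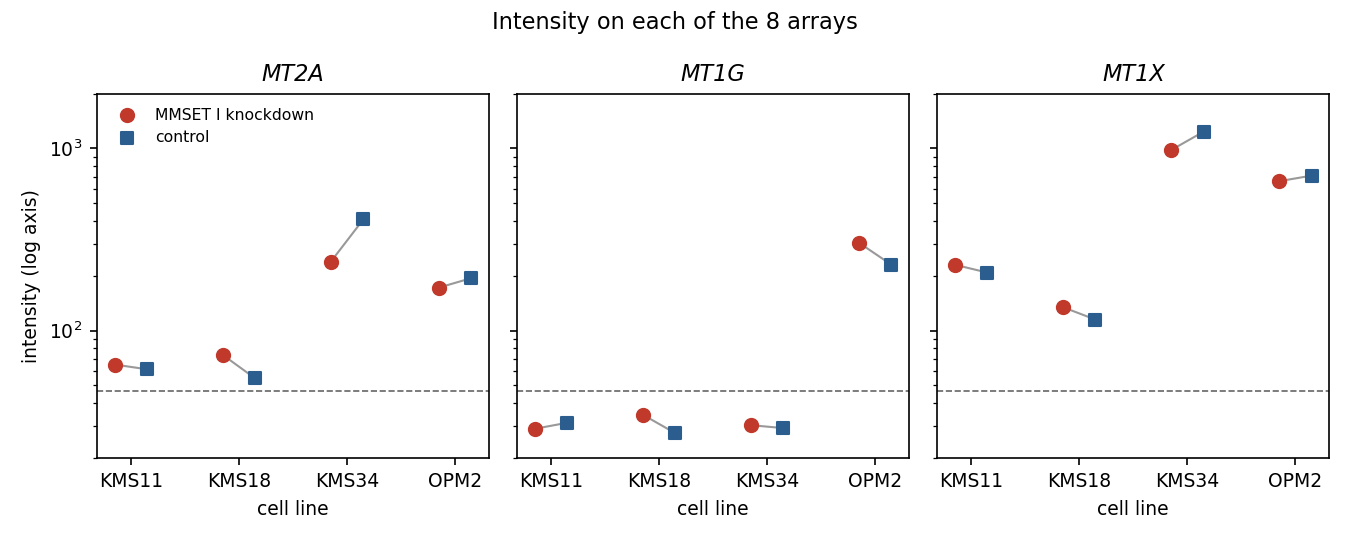
Intensity (log axis) of MT2A, MT1G and MT1X in each line on the MMSET I knockdown array (circle, left) and the control array (square, right), joined by a line; the dashed line is the limit of 46.7. MT2A and MT1X are high in KMS34 and OPM2, MT1G in OPM2, where it has 303 with the knockdown and 230 in the control. Heights of different genes cannot be compared, since their probes differ.

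With the MMSET I knockdown, MT2A was 1.70-fold lower in KMS34, from 1 array each, a log2 difference of -0.77. This value chose the gene and is a description; a drop of at least 1.5-fold in KMS34 was seen in 0.135% of tested genes (15 of 11109). MT2A stood second among them, after a microRNA row, and the next gene was SIGLEC7 at 1.64-fold lower. Just inside the 1.5-fold threshold stood FAM86B2-DT at 1.501-fold, and just outside it ZNF675 at 1.4999-fold. In the other lines the difference was -0.17 in OPM2, 0.09 in KMS11 and 0.43 in KMS18. The difference was below 0 in the lines where MT2A was high and above 0 in those where it was low. This combination of signs includes the KMS34 value that chose the gene, and 6.3% of the tested genes had it.

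Over KMS11, KMS18 and OPM2, which played no part in the choice, the difference of MT2A averaged 0.11 ± 0.30 on the log2 scale (SD, n = 3 lines). Its standard error in limma was 0.102 and it did not pass (adjusted p = 0.823). In that fit 2 of the 11109 genes passed (0.018%), and 47 did without OPM2. An exact two-sided permutation test within lines gave p = 0.75, where the smallest it can give is 0.25. The difference was above 0 in 2 of 3 lines, and its average changed sign without KMS18, to -0.042. Over 4 lines MT2A had a mean intensity of 137 ± 83.4 in knockdown arrays and 179 ± 165 in control arrays (SD, n = 4 each), which include the KMS34 arrays and a spread that is mostly between lines.

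MT1G was above the limit on the OPM2 arrays alone. It had an intensity of 303 on the OPM2 knockdown array and 230 on the OPM2 control array. In KMS18 it had 34.5 with the knockdown and 27.3 in the control, in KMS11 28.9 and 31.2, and in KMS34 30.2 and 29.1. The arrays of KMS11, KMS18 and KMS34 overlapped, with values from 27.3 to 34.5, and lay near the dimmest values of the arrays.

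MT1G was chosen by the OPM2 level, so the following size has no test. The OPM2 mean was 8.60-fold above that of KMS18, the next line, and 5.65-fold above the limit of 46.7. Because the next lines were dim, the second value is the one to read, as at least 5.65-fold. A height of at least 4-fold over the next line or the limit was seen in OPM2 for 7 of the 11109 tested genes (0.063%), of which RELN and IGFBPL1 exceeded MT1G. MOB1B stood just inside this threshold at 4.39-fold and AFAP1L2 just outside it at 3.99-fold. MT1G passed the filter on dim genes through its OPM2 arrays, with 6 of 8 arrays under the limit.

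The knockdown difference of MT1G was not used in the choice. It was 0.40 on the log2 scale in OPM2, 0.34 in KMS18, 0.05 in KMS34 and -0.11 in KMS11, with a mean of 0.17 (SE 0.0848). It did not pass limma's test (adjusted p = 0.624), which called 0.117% of genes (13 of 11109), and 1 to 2 genes with any line left out. The exact two-sided permutation test gave p = 0.375, where 0.125 is the smallest possible. In the OPM2 cultures, where the row was bright, MT1G was 1.32-fold higher with the knockdown while MT2A was 1.13-fold lower, both from 1 array each. The differences in the other lines rest on dim values. Mean intensities of MT1G over the 4 lines were 99.1 ± 136 in knockdown arrays and 79.3 ± 100.2 in control arrays (SD, n = 4 each), a spread that OPM2 sets.

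Among the other family members, MT1X, a widely expressed and metal-inducible form, came closest to MT2A. It had an intensity of 978 with the knockdown and 1234 in the control in KMS34, and 660 and 708 in OPM2. In KMS11 it had 229 with the knockdown and 208 in the control, and in KMS18 134 and 115. Its 4 lines did not overlap, in the order KMS34, OPM2, KMS11 and KMS18. Line means spanned 8.85-fold (limma F test, adjusted p = 1.46e-09). KMS34 exceeded OPM2 by 1.61-fold (limma, adjusted p = 0.000599; 26.8% of genes were called higher in KMS34), and OPM2 exceeded KMS11 by 3.13-fold (3.68e-07). KMS11 exceeded KMS18 by 1.76-fold (limma, adjusted p = 0.000136), a pair that MT2A did not separate.

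The knockdown differences of MT1X had the sign of those of MT2A in each line, at -0.33 in KMS34, -0.10 in OPM2, 0.14 in KMS11 and 0.23 in KMS18. They averaged -0.02 (SE 0.0872) and did not pass limma's test (adjusted p = 0.971). The exact two-sided permutation test gave p = 1.0, where 0.125 is the smallest possible. This combination of signs, singled out after the values were seen, was found in 6.3% of the tested genes (700 of 11109).

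**Figure D3:**
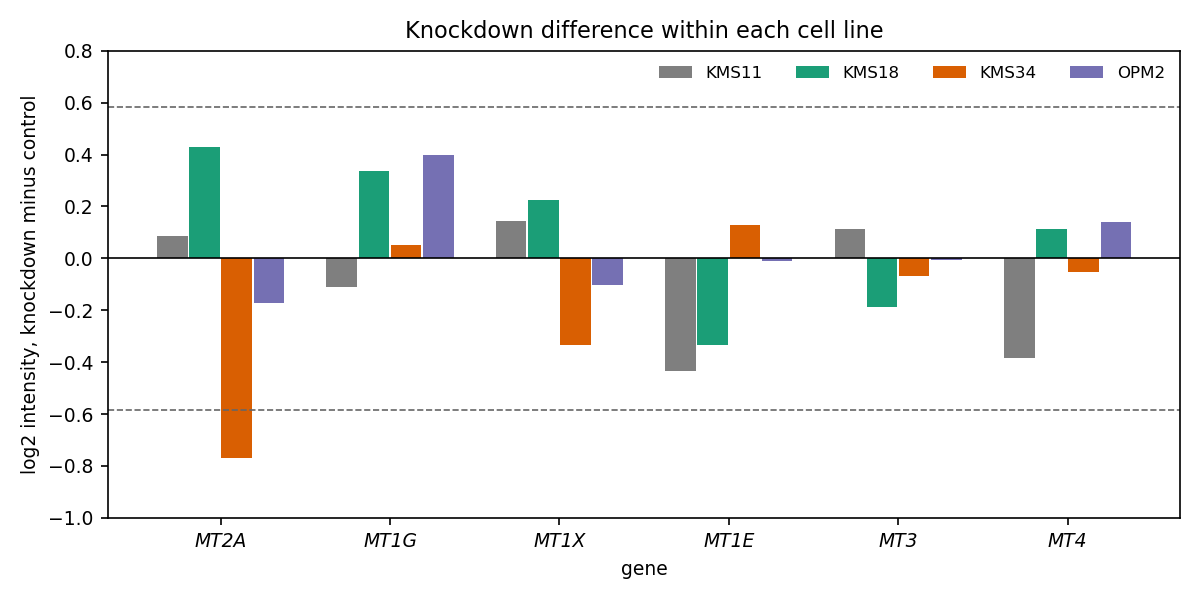
Log2 intensity of the knockdown array minus the control array in each line for the 6 tested metallothionein genes; bars are single differences with no error, and dashed lines mark 1.5-fold. MT2A in KMS34, at -0.77, is the single bar past 1.5-fold, and MT1X has the same sign as MT2A in the 4 lines.

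MT1E, which like MT1X is a metal-inducible form, varied less. Its intensity was 58.4 with the knockdown and 79.0 in the control in KMS11, 62.7 and 79.0 in KMS18, 91.0 and 83.3 in KMS34, and 95.9 and 96.6 in OPM2. Its knockdown difference averaged -0.16 (limma, adjusted p = 0.67). The lines differed by 1.42-fold from lowest to highest mean (limma F test, adjusted p = 0.00778), with OPM2 and KMS34 highest, as for MT2A and MT1X but in the other order.

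MT3, known for its expression in brain, and MT4, known from stratified epithelia, had small ranges. MT3 lay between 64.6 and 90.1 and MT4 between 102 and 170 on the 8 arrays. MT3 was highest in OPM2 and KMS18, with a span of 1.32-fold (limma F test, adjusted p = 0.00336), and MT4 in KMS18 and OPM2, with 1.42-fold (adjusted p = 0.00341). Neither passed for the knockdown, with differences of -0.04 and -0.05 (limma, adjusted p = 0.917 and 0.919). Neither was high in KMS34.

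The rows of MT1B, MT1F, MT1H, MT1M and the pseudogene MT1L were under the limit on 8 of 8 arrays and were left out of the tests. MT1F lay between 32.7 and 46.2, and the other 4 between 24.2 and 33.7. On the OPM2 arrays, where MT1G had 303 and 230, MT1H, its neighbour in the cluster, had 27.1 with the knockdown and 29.4 in the control. MT1B had 29.0 and 27.7 there, and MT1M 26.4 and 28.4.

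Since the transcripts of the family are alike, a probe made for one gene may also bind another, and probe sequences were not used here. The part that shared binding plays in any of these rows was not tested, including MT2A and MT1X, which were high in the same lines. In KMS34, the line where MT2A and MT1X were highest, the MT1G row had values that overlapped its own in KMS11 and KMS18. Whether the MT1G probes bind the transcripts of MT2A or MT1X was not tested either.

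**Figure D4:**
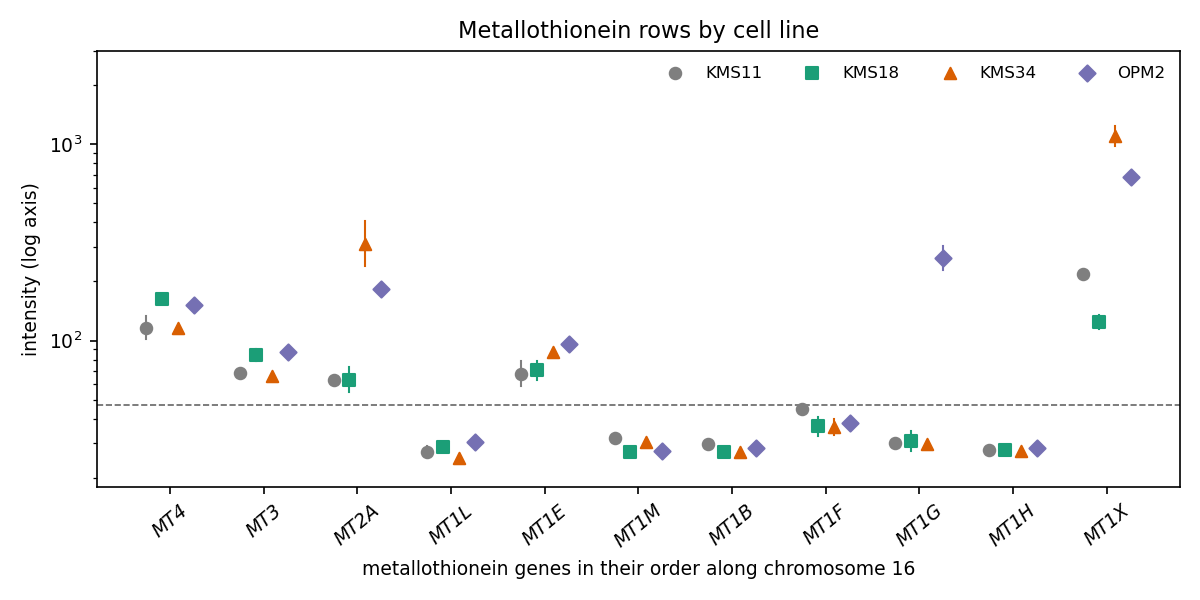
Line mean intensity (log axis) of the 11 metallothionein genes with a named row, in their order along chromosome 16; vertical bars span the knockdown and the control array of a line, and the dashed line is the limit of 46.7. MT1G is bright in OPM2 while its neighbours MT1F and MT1H are dim in the 4 lines.

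Of the 5 tested metallothionein genes other than MT1G, 5 passed the F test between lines, where the background is 75.7%. Their median range was 0.505 on the log2 scale against 0.516 over all tested genes, so the wide ranges were those of MT2A and MT1X. Against the mean of the other lines, OPM2 was higher in MT2A (1.70-fold), MT1X (2.21-fold), MT1E (1.29-fold) and MT3 (1.21-fold), each called by limma at an adjusted p from 1.63e-06 to 0.0122. MT4, at 1.16-fold higher, was not called (adjusted p = 0.086). These are 4 of the 5 tested genes other than MT1G, where 22.6% of all genes were called higher in OPM2. The KMS34 arrays that chose MT2A enter this contrast, so its call there is a description. As 5 dimmer members were not tested, the count is no measure of the whole family. Nor was OPM2 alone: KMS34 was higher for MT2A (line means 312 against 183) and MT1X (1099 against 684). OPM2 was not called apart from KMS34 for MT1E (limma, adjusted p = 0.365) or from KMS18 for MT3 (adjusted p = 0.724).

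The list of metal-responsive transcription had 2 of 5 genes with a row, MTF1, the zinc-sensing activator of metallothionein genes, and MTF2, a Polycomb-associated protein. The intensity of MTF1 was 756 with the knockdown and 639 in the control in KMS11, 433 and 437 in KMS18, 523 and 525 in KMS34, and 540 and 551 in OPM2. It was highest in KMS11, where MT2A was low. The lines differed (limma F test, adjusted p = 0.000352), while the knockdown difference, 0.05, did not pass (adjusted p = 0.88). MTF2 had 308 with the knockdown and 364 in the control in KMS34, 286 and 330.0 in OPM2, 231 and 299 in KMS11, and 231 and 243 in KMS18. Its line means ran in the order of those of MT1X, from 335 in KMS34 through 307 in OPM2 and 263 in KMS11 to 237 in KMS18. The lines differed (limma F test, adjusted p = 0.00175), but arrays of lines next to each other in this order overlapped, unlike those of MT1X. Against the mean of the other lines KMS34 was called higher (0.33, limma, adjusted p = 0.0043) and OPM2 was not called (0.16, limma, adjusted p = 0.11). The knockdown difference of MTF2 was -0.22, below 0 in 4 of 4 lines, and did not pass (limma, unadjusted p = 0.00606, adjusted p = 0.4). Of 24 zinc transporter genes 0 had a named row, and these were not analysed here.

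Lists of other pathways known to bear on metallothionein genes were read from the same fits. Of 7 copper handling genes 0 passed for the knockdown, with a median difference of 0.0025 against -0.0033 over all tested genes. Between lines 6 of 7 differed, near the 75.7% of all genes. The copper chaperone gene COX17 was lowest in OPM2, at a line mean of 56.4, and highest in KMS34, at 132. Of 9 oxidative and heavy metal stress genes 0 passed for the knockdown, where 0.117% of all genes did, and 6 differed between lines, no larger a share than the 75.7% of all genes. HSPA1A and HSPA1B, the inducible HSP70 genes, were highest in KMS34 (line means 1059 and 1357) and lowest in KMS18 (351 and 419). Their signals are uncertain, as these genes are near-identical and have several rows. SRXN1, which repairs oxidised peroxiredoxins, was likewise highest in KMS34 (340) and lowest in KMS18 (186). The heme oxygenase gene HMOX1 had a knockdown difference of -0.19, with an unadjusted limma p of 0.0126 and an adjusted p of 0.459.

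Of 7 glucocorticoid response genes 1 passed for the knockdown, the transcription factor gene KLF9, which fell (log2 difference -0.40, limma, adjusted p = 0.0422), where 0.117% of all genes passed. The call is near the threshold, and the 13 genes called in all fell to 1 to 2 with any line left out. The list was drawn up with earlier results of these arrays known, so the count of 1 is a description. ZBTB16 of the same list went the other way, with a difference of 0.15 (limma, unadjusted p = 0.032, adjusted p = 0.575). Its line means in KMS11 and OPM2, 45.9 and 45.7, were under the limit. Between lines 6 of 7 differed, again near the 75.7% of all genes. The glucocorticoid-induced kinase gene SGK1 was highest in KMS11 (line mean 210.5) and had 70.8 in OPM2 and 74.7 in KMS34. The clock gene PER1 was highest in KMS11 (240.4) and lowest in KMS18 (96.2). KLF9 was high in KMS34 (line mean 322) and KMS11 (319) and lowest in OPM2 (99.5). FKBP5, a steroid receptor co-chaperone gene named here after its values were seen, was highest in KMS34, as was MT2A. Its line means were 161 in KMS34, 135 in OPM2, 125 in KMS11 and 121 in KMS18 (limma F test, adjusted p = 0.00609). Against the mean of the other lines KMS34 was called higher (0.34, limma, adjusted p = 0.00262). Unlike for MT2A, OPM2 was not called (0.0039, limma, adjusted p = 0.971). Members of this list thus ordered the lines in different ways.

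Genes around the cluster on chromosome 16 were examined in the OPM2 contrast. Of 13 tested neighbours 6 were called higher in OPM2 and 2 lower, where 22.6% of all genes were called higher and 26.1% lower, with a median of 0.13 against 0.02 over all tested genes. CPNE2 was higher, with a log2 difference of 1.02 from the mean of the other lines (limma, adjusted p = 7.07e-07), though its KMS11 mean of 202 was near its OPM2 mean of 219.5. NUDT21, a subunit of the mRNA cleavage machinery, was higher by 0.37 (adjusted p = 0.000883) and BBS2, a ciliary gene next to the cluster, was lower (-0.69, adjusted p = 2.17e-05). PLLP, which encodes a membrane protein known from myelin, was lower as well (-0.29, adjusted p = 0.00666).

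Genes with the most similar pattern were ranked by Pearson's r on log2 values over the 8 arrays, among 2044 other genes whose line means spanned at least 1 log2 unit. As arrays of a line are alike, these values rest on 4 lines and are descriptions. For MT2A the first were NRSN2 (r = 0.970), DESI1 (0.969), TM7SF3 (0.966), MRPS16 (0.964) and MT1X (0.961). NRSN2, a neuronal vesicle membrane protein gene, had line means of 209 in KMS34, 187 in OPM2, 67.0 in KMS18 and 56.7 in KMS11, and was lower with the knockdown in KMS34 by -0.57.

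For MT1G the first were UAP1 (r = 0.990), DSEL (0.988), LINC01257 (0.988), HS3ST3B1 (0.986) and TEX19 (0.985), each highest in OPM2. MT1G was chosen by its OPM2 level and was dim in the other lines. This ranking therefore picks out genes high in OPM2 and is a description. UAP1 makes the sugar donor UDP-N-acetylglucosamine, and DSEL and HS3ST3B1 are enzymes that modify glycosaminoglycan chains. MT1G and MT2A had an r of 0.314 with each other, which placed MT2A at rank 447 for MT1G. MT1X stood at rank 397 for MT1G, with an r of 0.380.

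By the Euclidean distance of the 4 knockdown differences, ranked over 10518 other genes, the nearest to MT2A were TMSB15A (0.300), HSD17B7 (0.325), FBXW4P1 (0.371), CALCB (0.378) and DSP (0.394). The KMS34 difference that chose MT2A is the largest of the 4 in size, so this ranking is a description. TMSB15A, which encodes an actin-binding thymosin, had differences of -0.64 in KMS34, -0.18 in OPM2, -0.18 in KMS11 and 0.48 in KMS18. Its OPM2 line mean of 25.6 was under the limit of 46.7. HSD17B7, an enzyme of cholesterol synthesis, had -0.64 in KMS34 and 0.29 in KMS18. MT1X stood at rank 25, at a distance of 0.488. Its differences were smaller than those of MT2A in KMS34, OPM2 and KMS18.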

How the data were processed

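The deposited values are linear intensities for each transcript cluster of Affymetrix Human Gene 2.0 ST arrays, made by the authors, per the series text, with GeneSpring. How they corrected background, normalized, summarized and filtered is not given in the sources used here. Array medians were 49.3 to 53.5; scaling of arrays to each other would hide a change shared by all genes. Here log2 of the intensity was taken. Of 44629 rows 15835 had a symbol in the platform annotation; 14812 genes were represented by their brightest row, and 11109 passed the filter at the 25th percentile of mean log2.

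Tests were run with limma 3.58.1 in R 4.3.3 (lmFit, eBayes) across all tested genes, with Benjamini-Hochberg adjustment and a threshold of 0.05: the knockdown with cell line as a block, and lines with the knockdown as a term. Pairing comes from the cell line in the labels; deviations from group means correlated at 0.925 to 0.932 within a line and at most -0.135 between lines. The fits were tested on simulated data. The genes and lists were chosen with earlier results of these data known. Named genes were the metallothioneins, at most 3 per list (4 for neighbours) with the smallest unadjusted p in the comparison described, and the 5 nearest by pattern. Genes at a rank or threshold edge were named after their values were seen. Alternatives were other normalizations, filters, row summaries, variance models, no block and each line left out.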

Additional observations from a re-analysis of the deposited data

Results flagged for a closer look

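MT1G in OPM2 stood far from the other 3 lines in both groups, at an intensity of 303 on the knockdown array and 230 on the control array. The knockdown difference of MTF1 in KMS11, 0.24 on the log2 scale (0.2407), stood apart from those of the other 3 lines, which lay between -0.028 and -0.0039. In all 36 sets of 4 values were examined in this way (11 metallothionein genes and MTF1) and 3 were singled out, where chance would single out about 1 in 20; MT1G had been chosen for its OPM2 level. The knockdown difference of MT2A had opposite signs in 2 lines, -0.77 (-0.7697) in KMS34 and 0.43 (0.4288) in KMS18. The contrast between these lines was not tested. That of MT1G was -0.11 (-0.1097) in KMS11 and 0.40 (0.4001) in OPM2, also not tested.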

How the results depend on the processing

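The knockdown difference of MT1G did not pass under any of the 11 alternatives run (0.09 to 0.26, adjusted p from 0.507 to 1.0), nor did that of MT2A in KMS11, KMS18 and OPM2 (11 alternatives, adjusted p from 0.374 to 1.0). Leaving out a line gave MT2A values from -0.042 (without KMS18) to 0.26 (without OPM2). The line differences of MT2A passed under 12 of 12 alternatives, with a range of 1.53 to 2.32 and an adjusted p of at most 0.000972. Its KMS34 difference stayed between -0.78 and -0.73. The count of 13 genes called for the knockdown over 4 lines was 4 with no filter on dim genes, 29 with trend and robust eBayes, 0 with no replicate block (18 at an unadjusted p under 0.05) and 1 to 2 with a line left out. In an alternative chosen after seeing the data, all rows of the table, it was 0 (3063 at an unadjusted p under 0.05). The 2 genes called over KMS11, KMS18 and OPM2 were 0 with no filter (1056 unadjusted), 9 with the filter at the 50th percentile, 15 with trend and robust eBayes, 0 with no replicate block (12 unadjusted), 0 over all rows (2712 unadjusted) and 2 to 47 with a line left out, with 47 reached without OPM2. The 8412 of 11109 genes called between lines were 8812 of 14812 with no filter and 17201 of 44629 over all rows. The share called between lines thus falls as dimmer rows are let in. The 4 metallothionein genes other than MT1G called in OPM2 were 2 with the filter at the 50th percentile, which leaves fewer genes, and 3 to 5 with a line left out. With that filter MT1G was not tested. Other causes were not tested. The low number of arrays and dim signal limit what can be seen of MT1G outside OPM2.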
